A study of Mus musculus with 8 samples.

Results

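The miR-99/100 and miR-125 families were followed through osteogenic culture of a mouse pre-osteoblast line and in newborn skull bone. The 9 members were taken by name (written with the mouse prefix mmu- in the sequences): 5 guide arms (miR-99a-5p, miR-99b-5p, miR-100-5p, miR-125a-5p and miR-125b-5p) and 4 passenger arms (miR-99a-3p, miR-99b-3p, miR-125b-1-3p and miR-125b-2-3p). They are 9 of the 1281 mature miRNAs in the deposited small RNA tables, and all 9 were found. Counts of a mature miRNA made from several precursors were summed, which among the members applied to miR-125b-5p alone. MC3T3 E1 sc4 is a subclone of a line made from mouse calvaria that lays down mineral when cultured with ascorbic acid and β-glycerol phosphate. It was used at passages 10 to 15 and its strain is given as C57BL/6. Its 5 libraries are titled day 0 (undifferentiated) and days 6, 10, 17 and 24 in 50 μg/ml ascorbic acid and 4 mM β-glycerol phosphate. The column names of days 6, 10, 17 and 24 also carry the tag veh, which that of day 0 lacks. Whatever the tag stands for cannot be told apart from the step from day 0 to later days. Each MC3T3 library is 1 pool of RNA from 3 cultures, so no day had a replicate. The other 3 libraries are frontal and parietal bones (calvaria) from C57BL/6 females aged 2 to 3 days, digested for 20 minutes with collagenase and trypsin before freezing. All 3 calvaria libraries carry Prrx1-Cre, a Cre recombinase driven by a promoter of early limb and skull mesenchyme, and no floxed allele is named. Nothing in the labels ties each calvaria library to an animal of its own. The p-values therefore describe only how far these samples differ, which may be technical.

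A miRNA hairpin gives a guide arm, which is loaded into Argonaute and pairs with messenger RNAs through its seed (bases 2 to 8), and a passenger arm, most of which is degraded. The miR-99/100 family is known for targeting components of mTOR and insulin-like growth factor signalling. The miR-125 family holds the mammalian counterparts of lin-4 of the worm, and miR-125b has been reported to restrain osteoblast differentiation. In mammals the families are transcribed from paralogous clusters, each holding a miR-99/100 hairpin, a let-7 hairpin and a miR-125 hairpin.

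The mature sequences are given because family membership rests on the seed and because the close likeness of some members bears on how their reads could be told apart. They are from RefSeq (GRCm38.p6), 5′ to 3′, with the seed in capitals, and all 9 members were matched. The first 3 share the seed of the miR-99/100 family and the next 2 that of the miR-125 family.
mmu-miR-99a-5p: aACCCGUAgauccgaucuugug
mmu-miR-100-5p: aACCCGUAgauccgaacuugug
mmu-miR-99b-5p: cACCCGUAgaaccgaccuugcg
mmu-miR-125a-5p: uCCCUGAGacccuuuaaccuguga
mmu-miR-125b-5p: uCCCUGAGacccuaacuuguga
mmu-miR-125b-1-3p: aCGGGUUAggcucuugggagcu
mmu-miR-125b-2-3p: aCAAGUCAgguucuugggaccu
mmu-miR-99a-3p: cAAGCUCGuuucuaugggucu
mmu-miR-99b-3p: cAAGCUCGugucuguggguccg
Counted from the 5′ end, miR-99a-5p and miR-100-5p differ by 1 substitution of 22 bases, U16A (U in miR-99a-5p, A in miR-100-5p). miR-99b-5p differs from miR-99a-5p by 4 (A1C, U11A, U16C and U21C). miR-125a-5p (24 bases) and miR-125b-5p (22 bases) share their first 13 bases. The guide miR-125b-5p has the same sequence at both of its loci, whereas the passenger arms miR-125b-1-3p and miR-125b-2-3p are equal at 17 of 22 positions and have different seeds. The passenger arms can therefore be assigned to a locus and the guide cannot.

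The 3 clusters lie on 3 chromosomes (GENCODE M21, GRCm38, plus strand throughout). On chromosome 9, Mir100 (41531425 to 41531504), Mirlet7a-2 (41536716 to 41536811) and Mir125b-1 (41581926 to 41582002) lie within introns of the noncoding transcript 3110039I08Rik, with 50422 bases between Mir100 and Mir125b-1. Mir100 also overlaps an exon of the opposite-strand lincRNA Gm48742, and Mir125b-1 an exon of the sense-intronic transcript Gm28119. On chromosome 16, Mir99a (77598936 to 77599000), Mirlet7c-1 (77599657 to 77599750) and Mir125b-2 (77646273 to 77646343) lie in introns of the noncoding gene Mir99ahg, with 47273 bases between the outer hairpins. On chromosome 17 the cluster is compact: Mir99b (17830188 to 17830257), Mirlet7e (17830352 to 17830444) and Mir125a (17830812 to 17830879) lie within the protein-coding gene Spaca6, the first 2 in an intron and Mir125a overlapping an exon, with 555 bases between Mir99b and Mir125a.

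Levels are given in RPM, the unit that scales each library by its total of miRNA counts. These totals were 2742368 to 4031962 in MC3T3 and 1183011 to 2023036 in calvaria. Intervals for single libraries are exact 95% intervals that cover counting error only, because no molecular identifier separates molecules from their PCR copies. A single miRNA, miR-21a-5p, took 45.5% of the day 0 counts against 11.2% to 20.1% on later days, which lowers the RPM of all other miRNAs at day 0. Fitted changes use TMM factors, which for the day trend were 0.739 at day 0 and 1.01 to 1.19 on later days. For calvaria against MC3T3 they were 0.716 at day 0, 0.914 to 1.16 on later days and 1.07 to 1.12 in calvaria. The mesenchymal miRNAs miR-199a-3p, miR-199a-5p, miR-214-3p and miR-143-3p summed to 128697 to 185009 RPM in MC3T3 and 130937 to 144798 in calvaria. That sum hides opposite differences. miR-199a-3p stood at 49960 to 55990 RPM in calvaria and 19980 to 41860 in MC3T3. miR-143-3p stood at 50330 to 64100 RPM in calvaria and 87470 to 117500 in MC3T3. The ranges of miR-199a-5p and miR-214-3p overlapped. Most markers of endothelium, cartilage and blood cells were called higher in calvaria. The 2 endothelial arms of miR-126 summed to 9028 to 20323 RPM there against 6.20 to 19.0 in MC3T3, and 4 cartilage miRNAs to 61235 to 111611 against 18218 to 28775. The 7 blood cell miRNAs found summed to 307.7 to 454.1 RPM in calvaria against 38.9 to 110.6, and 6 of the 7 were called higher there. The other, miR-486-5p, was called lower (47.8 to 59.6 RPM in calvaria, 36.5 at day 0 and 81.1 to 107.1 on later days) and made up most of the MC3T3 sum. Of 4 muscle miRNAs tested 2 were higher, and of 2 nervous system miRNAs none. No endothelial, blood cell or cartilage marker found was at 0 in every MC3T3 library.

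The 3 miR-99/100 guides together took 5.81% of all counts at day 0, 9.51% at day 6, 11.1% at day 10, 12.3% at day 17 and 11.8% at day 24. In calvaria they took 5.68%, 5.69% and 5.36%. The day 0 share was near that of calvaria and every later day lay above it. Without the miR-21a-5p counts the day 0 share was 10.7%, against 11.9% to 13.9% on later days and 5.94% to 6.12% in calvaria, so day 0 lay closer to the later days on that base. The makeup of the family also differed between days. miR-100-5p made up 60.4% of it at day 0 and 26.9% at day 24, and miR-99a-5p made up 22.7% and 67.9%. miR-99b-5p was 16.9% at day 0 and 4.84% to 8.66% later. In calvaria miR-99a-5p (40.4% to 46.8%) and miR-100-5p (41.2% to 47.1%) had similar shares. The 2 miR-125 guides took 1.15%, 2.17%, 1.63%, 1.24% and 1.27% of counts over the 5 days and 0.669% to 0.839% in calvaria. Without the miR-21a-5p counts these shares were 2.12%, 2.72%, 2.01%, 1.40% and 1.46% over the days and 0.707% to 0.930% in calvaria. Day 0 was the lowest day on the first base but not on the second. miR-125b-5p made up 85.8% to 94.1% of the 2 guides in every library.

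**Figure D1:**
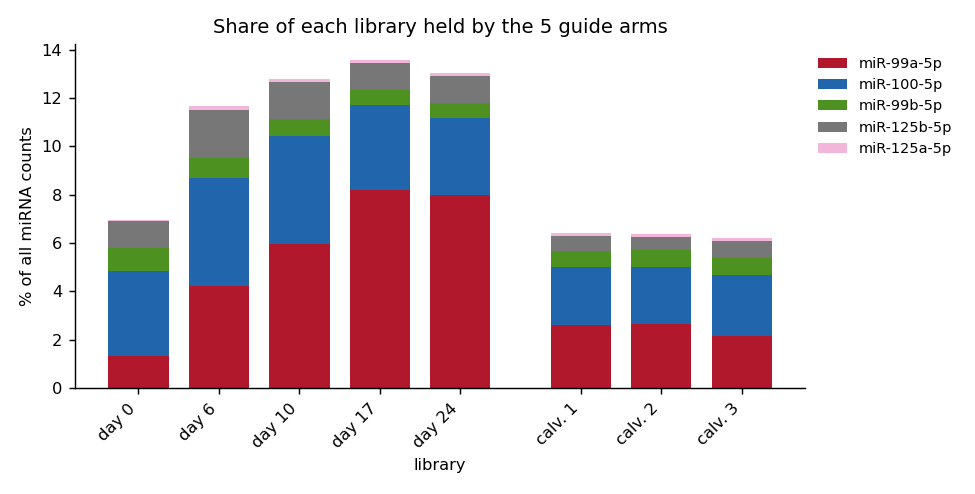
Stacked bars give the percentage of all miRNA counts held by each of the 5 guide arms in each library (MC3T3 by titled day, then the 3 calvaria libraries). The miR-99a-5p segment is 1.32% at day 0 and 8.20% at day 17, while the miR-100-5p segment stays between 3.16% and 4.45% in MC3T3.

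The chromosome 16 cluster was followed through miR-99a-5p, its passenger miR-99a-3p and the passenger miR-125b-2-3p. miR-99a-5p stood at 13160, 42324, 59533, 82000.1 and 80008 RPM on days 0, 6, 10, 17 and 24. Its interval was 13048 to 13272 RPM for the first and 79674 to 80344 for the last of these libraries. It was lowest at day 0 and higher at each step to day 17, and day 24 stood at 0.976 times day 17. Among all miRNAs it ranked 14th at day 0 and 3rd on days 17 and 24. The first step was the largest, day 6 standing 3.22 times as high as day 0 (2.00 times after TMM scaling). Day 24 in turn was 1.89 times as high as day 6 (2.22 times after TMM scaling), so levels also differed among the later days.

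miR-125b-2-3p, which only the chromosome 16 copy of the miR-125b hairpin yields, had a like course. It stood at 67.7, 292.5, 405.2, 594.4 and 543.7 RPM on the 5 days, with intervals of 59.9 to 76.2 for the first and 516.4 to 572.0 for the last. The order of the 5 libraries was the same as for miR-99a-5p. Day 24 was 8.03 times as high as day 0 (interval 7.05 to 9.17), or 5.89 times after TMM scaling. miR-99a-3p is far scarcer, with 20, 76, 69, 133 and 70 counts, or 4.96, 24.1, 22.2, 33.8 and 25.5 RPM. Day 0 was again the lowest, and the intervals of days 6, 10 and 24 overlapped. That of day 17 (28.3 to 40.0 RPM) overlapped those of days 6 and 24.

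Over the 24 days the fitted log2 changes were 2.12 ± 0.44 (SE) for miR-99a-5p, 2.42 ± 0.61 for miR-125b-2-3p and 1.60 ± 0.66 for miR-99a-3p. By the edgeR quasi-likelihood test none passed the threshold of 0.05 (p adjusted over 391 miRNAs by Benjamini-Hochberg = 0.0502, 0.0895 and 0.195). The miR-99a-5p value lay so near the threshold that 8 of its 16 alternative settings passed. Its adjusted p was lowest with day on a log2 scale (0.000544) and highest when day 17 was left out (0.142). Without day 0, both miR-99a-5p (1.42, adjusted p = 0.00238) and miR-125b-2-3p (1.43, 0.00802) rose. In that setting 27 of all 380 miRNAs rose and 30 fell. Without day 24, the log2 changes of miR-99a-5p and miR-125b-2-3p were 3.00 (0.0602) and 3.62 (0.0689). Each of these is still a slope times 24 days, although the fitted days spanned less.

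The chromosome 9 cluster did not share that course. Its guide miR-100-5p, which differs from miR-99a-5p by U16A, stood at 35087, 44542, 44521, 35141 and 31619 RPM on days 0, 6, 10, 17 and 24. In RPM, the ratio of the highest to the lowest of the 5 libraries was smaller than for any other member, and day 24 was the lowest. Day 6 stood at 1.27 times day 0 in RPM but at 0.791 times after TMM scaling. On that scale days 17 and 24 stood at 0.682 and 0.661 times day 0. Its fitted change was -0.59 ± 0.27 (adjusted p = 0.242, edgeR quasi-likelihood test).

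miR-125b-1-3p, the passenger arm of the chromosome 9 copy of miR-125b, fell. It stood at 597.7, 577.1, 249.0, 162.9 and 167.7 RPM on days 0, 6, 10, 17 and 24, with intervals of 574.1 to 622.1 for the first and 152.8 to 183.8 for the last. In RPM, days 0 and 6 were high with overlapping intervals, although after TMM scaling day 6 stood at 0.602 times day 0. Days 17 and 24 were low with overlapping intervals, and day 10 lay between. Day 24 stood at 0.281 times day 0 (interval 0.253 to 0.310), or 0.206 times after TMM scaling. The fitted change was -2.42 ± 0.48 with an adjusted p of 0.0473 (edgeR quasi-likelihood test). That call was kept by 8 of its 16 alternative settings and was lost with library totals (-2.15, 0.115), library totals without miR-21a-5p (0.0643), a minimum of 100 counts (0.0662), limma (0.107 and 0.110) and without day 6 (0.135), day 17 (0.138) or day 24 (-3.54, 0.0602). The fitted slope was negative in each of these settings.

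**Figure D2:**
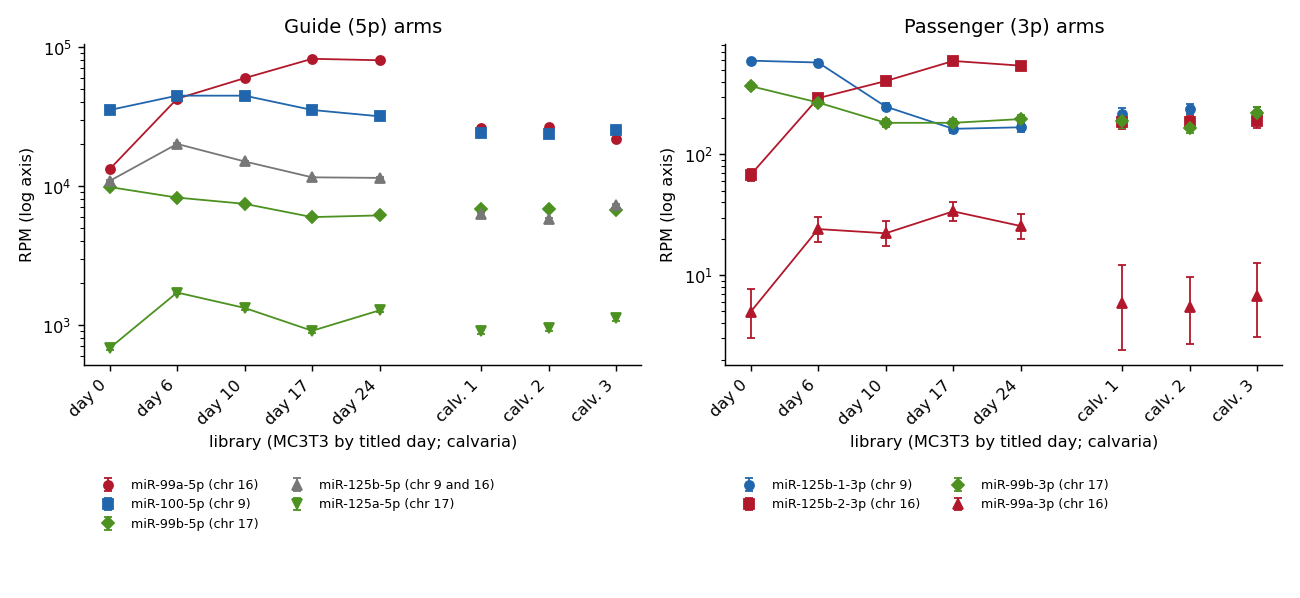
Points give RPM on a log axis for each member in each library, guide arms on the left and passenger arms on the right, with exact 95% counting intervals as bars and colours by chromosome (16 red, 9 blue, 17 green, grey for miR-125b-5p). miR-99a-5p passes miR-100-5p between days 6 and 10, and miR-125b-2-3p passes miR-125b-1-3p between the same days.

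The ratio of the miR-125b passenger arms compares the chromosome 9 with the chromosome 16 copy inside 1 library, so it does not depend on library scaling. Of their summed counts, miR-125b-1-3p held 89.8% at day 0 (2410 against 273 counts), 66.4% at day 6 (1821 against 923), 38.1% at day 10 (773 against 1258), 21.5% at day 17 (642 against 2342) and 23.6% at day 24 (460 against 1491). As a ratio this was 8.83 (7.79 to 10.0) on day 0, 0.274 (0.251 to 0.299) on day 17 and 0.309 (0.277 to 0.343) on day 24. The intervals of days 17 and 24 overlapped, and those of the earlier days were apart from each other and from both. The sum of both arms, which does depend on the base, stayed between 0.0654% and 0.0870% of all counts in the 5 MC3T3 libraries. Without the miR-21a-5p counts it was 0.122% at day 0, 0.109% at day 6 and 0.0806% to 0.0853% on later days. The 3 calvaria libraries had ratios of 1.16 (0.964 to 1.40), 1.27 (1.11 to 1.46) and 1.17 (0.990 to 1.40), between those of days 6 and 10.

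The guides of the same 2 clusters also stood in opposite order at the start and the end of the course. The ratio of miR-99a-5p (chromosome 16) to miR-100-5p (chromosome 9) was 0.375, 0.9502, 1.34, 2.33 and 2.53 on days 0, 6, 10, 17 and 24 and 1.08, 1.13 and 0.857 in calvaria. Day 0 had the lowest and day 24 the highest ratio, and the calvaria libraries lay around that of day 6. With 1 library per day these ratios carry counting error only and no test. A few values of miR-99a-5p (3 of 8) and of miR-100-5p (4 of 8) were not whole numbers, so some reads were divided between entries, and the size of that exchange was not tested.

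**Figure D3:**
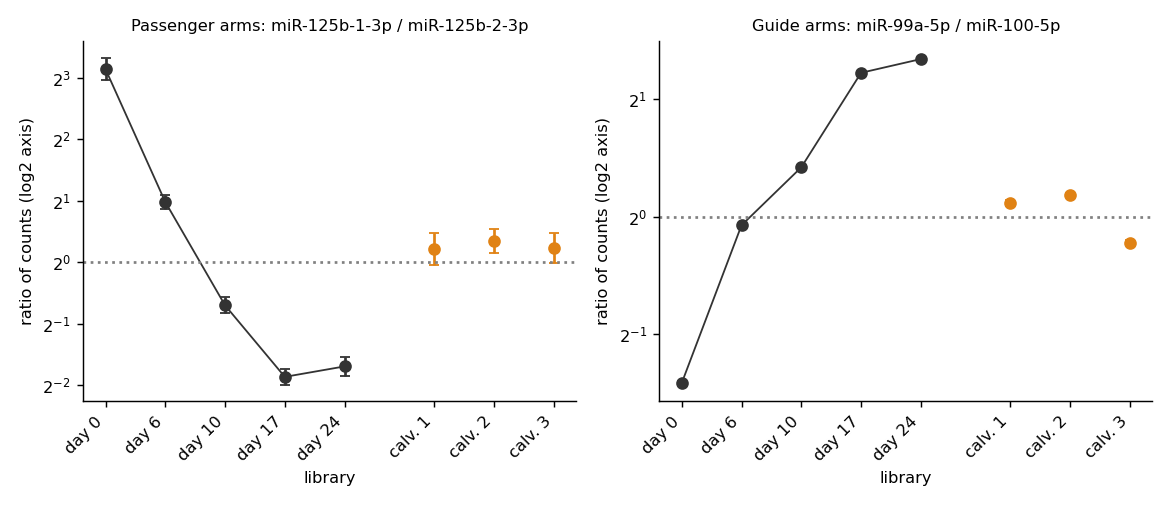
Points give the ratio of counts of miR-125b-1-3p to miR-125b-2-3p (left) and of miR-99a-5p to miR-100-5p (right) on log2 axes in each library, with exact 95% binomial intervals as bars, MC3T3 in black and calvaria in orange. The left ratio is 8.83 at day 0 and 0.309 at day 24 and the right one 0.375 and 2.53, with the calvaria libraries between those days in both.

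The guide miR-125b-5p, which both of these clusters produce, stood at 10841, 20024, 14981, 11520 and 11412 RPM on days 0, 6, 10, 17 and 24. It was highest at day 6, and day 24 was 1.05 (1.04 to 1.07) times day 0 in RPM and 0.772 times after TMM scaling. Its fitted change was -0.58 ± 0.32 (adjusted p = 0.317, edgeR quasi-likelihood test). The table lists this guide once per precursor, and the entry of the chromosome 9 precursor held 51.4% to 52.7% of the sum in all 8 libraries. Of the 16 entry values, 12 were not whole numbers, so reads were divided between the entries. Because the guide sequence is the same at both loci, that split cannot show how much each locus made. It can therefore not be set against the passenger arms, whose chromosome 9 share ranged from 21.5% to 89.8%.

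The chromosome 17 cluster had another course. miR-99b-5p stood at 9811, 8236, 7429, 5963 and 6132 RPM on days 0, 6, 10, 17 and 24, highest at day 0 and lowest at day 17. Its passenger miR-99b-3p stood at 368.1, 269.1, 182.6, 182.7 and 196.2 RPM, again highest at day 0. The fitted changes were -1.05 ± 0.37 and -1.25 ± 0.48, and neither passed (adjusted p = 0.139 and 0.163, edgeR quasi-likelihood test). Of the 16 alternatives, the log2 day scale was the one under which they did (0.00831 and 0.00585). For each 1000 guide counts there were 37.5, 32.7, 24.6, 30.6 and 32.0 passenger counts over the days and 24.4 to 32.7 in calvaria.

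miR-125a-5p, made from the hairpin 555 bases downstream of Mir99b, did not follow it. It stood at 680.8 RPM at day 0, 1710 at day 6, 1325 at day 10, 907.8 at day 17 and 1274 at day 24. In RPM it was lowest at day 0, where miR-99b-5p was highest, but after TMM scaling day 17 stood at 0.909 times day 0. The ratio of miR-99b-5p to miR-125a-5p was 14.4 (13.9 to 15.0) at day 0 against 4.81 to 6.57 on later days and 5.96 to 7.54 in calvaria. The fitted change of miR-125a-5p was 0.05 ± 0.45 (adjusted p = 0.946, edgeR quasi-likelihood test), and its sign turned in 4 of 16 alternatives.

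Of the 9 members, 1 fell and none rose with day in the edgeR quasi-likelihood test (adjusted p under 0.05), against 1.28% and 1.02% of all 391 miRNAs tested. At an unadjusted p under 0.05, 3 members had a negative and 3 a positive slope, against 13% and 10.2% of all miRNAs. The DESeq2 Wald test called 2 members upward and 1 downward, against 4.86% and 3.58%. The median log2 change was -0.58 over the members and -0.12 over all miRNAs. Among the members miR-125b-2-3p ranked 12th and miR-99a-5p 15th from the top of the 391 fitted changes, and miR-125b-1-3p 14th from the bottom. The spread behind these tests comes from the departure of 5 libraries from a straight line, with 3 residual degrees of freedom. It so holds noise and any curved course alike. Both tests also draw the spread of each miRNA toward that of the other miRNAs, so the p-values rest partly on those.

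The cultured line was then compared with bone, as 3 libraries of calvaria and 5 of MC3T3, whose spread includes the differences between days. miR-125b-5p, miR-100-5p and miR-99a-5p were lower in calvaria, and no member was higher. The scarce miR-99a-3p was also called lower, but it met the count minimum (10 counts in 3 libraries) only through MC3T3, with 1 calvaria library reaching it. Bone holds many cell types, and in bulk RNA fewer cells of a type and less of a miRNA per cell cannot be told apart. miR-125b-5p stood at 6245, 5737 and 7273 RPM in calvaria, against a lowest of 10841, a median of 11520 and a highest of 20024 in MC3T3. Its groups did not overlap, and it was lower by a log2 difference of -1.28 ± 0.21 (adjusted p = 0.00025, edgeR quasi-likelihood test, 471 miRNAs tested). miR-100-5p stood at 23958, 23473 and 25260 RPM in calvaria, against a lowest of 31619, a median of 35141 and a highest of 44542 in MC3T3, again without overlap (-0.86 ± 0.19, adjusted p = 0.00216). Both calls were kept in every alternative run, with adjusted p of at most 0.00934 for miR-125b-5p and 0.0386 for miR-100-5p.

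Groups that did not overlap with calvaria below MC3T3 were thus found for 2 of 9 members, against 21.9% of the 471 miRNAs. By the test 4 of 9 members were lower, 1 of them the miR-99a-3p that entered through MC3T3, against 28.7% of all miRNAs. In the other direction there were 0 of 9 (also 0 at an unadjusted p under 0.05 and 0 with DESeq2), against 35.5% of all miRNAs. With upper quartile factors 8 of 9 members were lower, against 40.8% of all miRNAs. The median difference was -0.91 over the members and 0.06 over all miRNAs. The latter moved with the scaling: upper quartile factors took it to -0.37, library totals to 0.25 and DESeq2 size factors to 0.23. All 9 members had a negative fitted difference under each of these scalings.

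miR-99a-5p stood at 24751 ± 2703 RPM (SD, n = 3) in calvaria, with 25986, 26615 and 21650 in the single libraries. MC3T3 ranged from 13160 to 82000.1 RPM, so that day 0 lay below calvaria and all later days above it. The difference was -1.32 ± 0.45 (adjusted p = 0.0232, edgeR quasi-likelihood test). It missed the threshold with library totals (0.0518), under limma (0.169 and 0.166) and when calvaria 1 (0.105), 2 (0.0926) or 3 (0.131) was left out. Asking for the count minimum in 2 libraries instead of 3, an alternative added after seeing the data, it passed when calvaria 1 was left out (0.0459) and missed for calvaria 2 (0.0736) or 3 (0.0743). miR-99a-3p had 7, 11 and 9 counts in calvaria (6.02 ± 0.637 RPM, SD, n = 3) and 4.96 to 33.8 RPM in MC3T3, a difference of -2.02 ± 0.49 (adjusted p = 0.00421). That call was lost against days 0 and 6 (0.0528).

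Which days stood on the MC3T3 side decided the result for the passenger arms of miR-125b. miR-125b-2-3p was at 185.1, 187.3 and 187.6 RPM in calvaria and was lower there than on days 17 and 24 (log2 -1.91 ± 0.15, adjusted p = 4.7e-05, edgeR quasi-likelihood test), but against days 0 and 6 the difference was -0.01 ± 0.42 (0.992). miR-125b-1-3p was at 214.7, 237.8 and 220.4 RPM in calvaria and was lower there than on days 0 and 6 (-1.68 ± 0.31, adjusted p = 0.00198), while against days 17 and 24 it was 0.14 ± 0.17 (0.491). miR-99a-5p went with the chromosome 16 passenger, at -2.01 ± 0.13 (adjusted p = 2.02e-05) against days 17 and 24 and -0.26 ± 0.33 (0.527) against days 0 and 6. Against days 17 and 24, 155 of all 476 miRNAs were lower in calvaria and 185 higher. Against days 0 and 6, 125 of 484 were lower and 184 higher. Each comparison takes 2 days of 1 library each as replicates. The contrast between the day groups restates the courses over days given above. The comparisons share the calvaria libraries and were not tested against each other. Against all 5 days neither miR-125b passenger passed (miR-125b-1-3p -0.91 ± 0.52, adjusted p = 0.141; miR-125b-2-3p -1.18 ± 0.50, 0.0599). miR-125b-2-3p was lower in 5 of its 23 alternatives, among them without day 0 (-1.43, 0.000819).

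Over all 5 days, the chromosome 17 members had the smallest fitted differences, an order that did not hold against days 17 and 24 or days 0 and 6 alone. miR-99b-5p was at 6794 ± 90.4 RPM in calvaria (SD, n = 3) and 7514 ± 1591 over the MC3T3 days (n = 5), a difference of -0.40 ± 0.28 (adjusted p = 0.23, edgeR quasi-likelihood test). miR-99b-3p was at 191.9 ± 26.2 and 239.7 ± 80.2 RPM (-0.60 ± 0.36, 0.166), and miR-125a-5p at 994.4 ± 112.2 and 1180 ± 398.3 RPM (-0.42 ± 0.23, 0.134). The calvaria libraries lay inside the MC3T3 range for miR-99b-5p and miR-125a-5p, and for miR-99b-3p calvaria 2 (166.6 RPM) lay below the lowest day (182.6 RPM). miR-99b-3p was lower than on days 0 and 6 (-1.07, adjusted p = 0.0335), and miR-125a-5p was lower when day 0 was left out (-0.49, 0.0491). The endothelial and cartilage markers and 6 of 7 blood cell markers were higher in calvaria by the amounts above, and their part in these differences was not tested.

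**Figure D4:**
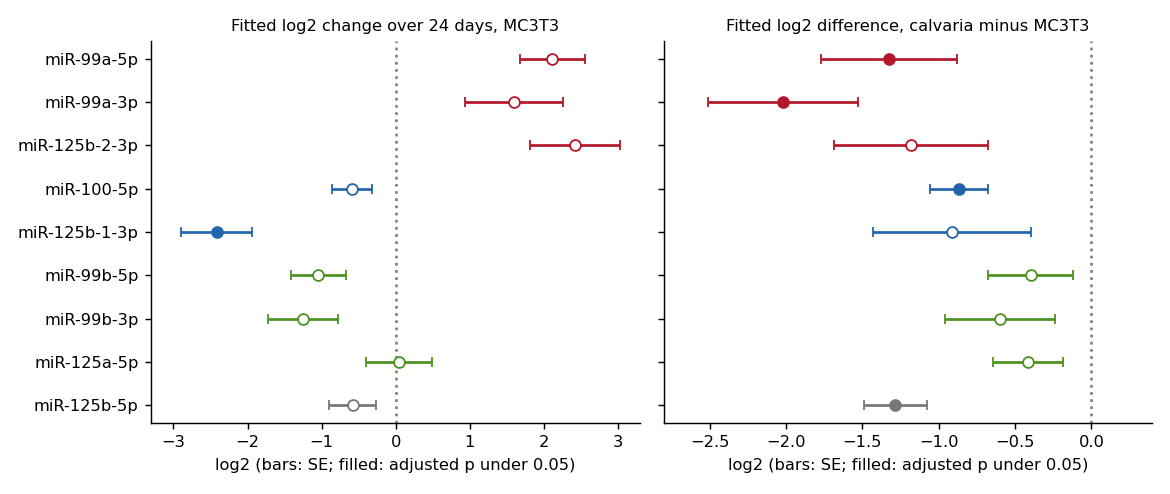
Points give fitted log2 values with SE bars for the 9 members, as the change over 24 days in MC3T3 (left) and as calvaria minus MC3T3 (right), filled where the adjusted p was under 0.05 and coloured by chromosome (16 red, 9 blue, 17 green, grey for miR-125b-5p of both 9 and 16). Members of the chromosome 16 cluster lie to the right of 0 on the left side, from 1.60 to 2.42, and all 9 members lie to the left of 0 on the right side.

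Ratios between members, and between members and let-7 hairpins of the same cluster, were compared between calvaria and MC3T3 in 9 exact two-sided permutation tests over 56 splits, whose smallest p is 0.0357. The ratio of miR-125a-5p to miR-125b-5p was 0.146, 0.166 and 0.154 in calvaria and 0.0628 to 0.112 in MC3T3, without overlap (difference 0.88 in log2, exact permutation p = 0.0357, 0.161 after adjustment over the 9 ratios). For each 1000 counts of miR-99a-5p, miR-99a-3p had 0.204 to 0.309 in calvaria and 0.319 to 0.569 in MC3T3 (-0.73 in log2, exact permutation p = 0.0357, adjusted 0.161). The calvaria values rest on 7, 11 and 9 counts of miR-99a-3p. Each of their counting intervals (0.0915 to 0.469, 0.102 to 0.366 and 0.141 to 0.588) overlapped that of every MC3T3 day but day 6. Days 0 and 10 had intervals of 0.230 to 0.582 and 0.290 to 0.472. Days 17 and 24 had 0.345 to 0.488 and 0.249 to 0.403. That of day 6 (0.448 to 0.712) overlapped those of calvaria 1 and 3. Neither ratio passed after adjustment. Both were already at the smallest p, which could pass over 9 ratios only if most of the others also reached it. The adjusted values therefore cannot decide whether these ratios differ between the materials. The other 7 ratios overlapped between the materials, with exact permutation p from 0.25 to 1.0. They included both cluster ratios, since MC3T3 lay on either side of calvaria. miR-125b-1-3p to miR-125b-2-3p had a difference of 0.29 in log2 (exact permutation p = 0.786, adjusted 0.924) and miR-99a-5p to miR-100-5p one of -0.27 (0.714, adjusted 0.924).

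Of 8 other arms of the 3 clusters, none passed with day (edgeR quasi-likelihood test), where 1.02% of all miRNAs rose and 1.28% fell. In calvaria 4 of the 8 were lower, against 28.7% of all miRNAs. At an unadjusted p under 0.05, let-7c-5p (positive) and let-7e-3p (negative) were the 2 with a slope, against 10.2% and 13% of all miRNAs. With day on a log2 scale 4 passed: let-7c-5p (0.92, adjusted p = 0.0429), let-7e-3p (-1.58, 0.0114), let-7a-2-3p (-1.78, 0.0361) and miR-100-3p (-1.89, 0.0479). On that scale 39 of all 391 miRNAs rose and 49 fell. Without day 0, let-7c-1-3p passed (-1.49, 0.0194), and 27 of 380 miRNAs rose and 30 fell. let-7c-5p, made from Mirlet7c-1 beside Mir99a and from another hairpin, stood at 15081, 25783, 32708, 40566 and 37109 RPM on days 0, 6, 10, 17 and 24. Its libraries had the same order as those of miR-99a-5p, with a fitted change of 0.98 ± 0.31 (adjusted p = 0.117), and 13913 ± 1605 RPM in calvaria (SD, n = 3; difference -1.30 ± 0.27, adjusted p = 0.00173). let-7c-1-3p, the passenger arm of Mirlet7c-1, had another course, with 19.7, 72.9, 63.5, 32.9 and 33.2 RPM, highest at day 6. It was lower in calvaria (10.4 ± 1.005 RPM, SD, n = 3, difference -2.22 ± 0.38, adjusted p = 0.000409). let-7e-3p of chromosome 17 was highest at day 0 (39.4 RPM, then 19.0 to 26.9) and lower in calvaria (-1.27 ± 0.44, adjusted p = 0.0256). let-7a-2-3p of chromosome 9 had 9 to 30.5 counts in MC3T3 and 2 in each calvaria library (-1.89 ± 0.64, adjusted p = 0.0232). It reached 10 counts in 3 MC3T3 libraries and in no calvaria library, so it entered the test only through the group where it is high. The last 2 calls were lost without any 1 of the calvaria libraries (adjusted p = 0.0749 to 0.175). let-7e-5p, let-7a-5p, miR-100-3p and miR-125a-3p passed in neither comparison, with differences from calvaria of 0.02, -0.26, 0.24 and 0.06.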

How the data were processed

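Per the labels' protocols, the libraries came from a NEBNext Small RNA kit. The authors deposited estimated counts for each arm of each precursor, and RPM, which equal the deposited counts over the library total for the members. The submitters' processing notes name cutadapt 0.9.5, Bowtie 0.12.7 and mm10. The quantifier and its settings were not given in the sources used here, so how reads shared by near-identical miRNAs were divided is unknown. Adapter ligation favours some sequences, so levels of different miRNAs compare less well than levels of 1 miRNA between libraries. MC3T3 columns were matched to titles by a day that is 3 lower in every column name.

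Counts were summed per mature miRNA and rounded. The edgeR quasi-likelihood test (edgeR 4.0.16, R 4.3.3) used TMM factors and Benjamini-Hochberg adjustment, with a threshold of 0.05. miRNAs needed 10 counts in 2 MC3T3 libraries (linear day, slope times 24) or in 3 of 8 libraries (calvaria against MC3T3). SE is the estimate over the root of F. Alternatives used DESeq2 1.42.0, limma 3.58.1 on log2(RPM + 1) or log2(RPM + 10), other scalings and filters, and left out libraries. The fitting code was run on simulated counts with straight-line changes and the same spread for all miRNAs. That run did not mimic the curved courses of these data. The text names all 9 members, 8 other arms of their clusters, the 3 nearest profiles of each guide, cell type markers and miR-21a-5p. miR-351-5p was added for its seed. Members and lists were chosen with earlier results of these data known.

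The marker lists held, as found and listed names, 7 of 11 for blood cells, 2 of 4 for endothelium, 4 of 4 for cartilage, 6 of 6 for striated muscle, 4 of 4 for nervous system, 5 of 5 for epithelium and 4 of 5 for mesenchyme. Of the muscle list 2 were higher and none lower in calvaria, of the nervous system list none either way, of the epithelium list 1 was higher, and of the mesenchyme list 1 was higher and 1 lower (edgeR). Listed at 0 in every MC3T3 library were miR-208b-3p (muscle), miR-124-3p and miR-137-3p (nervous system).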

Additional observations from a re-analysis of the deposited data

How the results depend on the processing

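No paired analysis was possible because no replicate numbers link MC3T3 and calvaria libraries and each day has 1 library. Over the day trend, 4 miRNAs rose and 5 fell of 391. These became 0 and 0 with library totals (38 and 25 at an unadjusted p under 0.05), 0 and 1 with library totals without miR-21a-5p, 19 and 14 with the DESeq2 Wald test, 7 and 10 with no filter, 0 and 1 at a minimum of 100 counts, 0 and 0 with limma at either pseudocount (47 higher in both at an unadjusted p under 0.05, 24 and 23 lower), 39 and 49 on a log2 day scale, and 0 to 27 and 0 to 30 without 1 library (27 and 30 without day 0). With entries per precursor 8 fell. Members higher numbered 1 with DESeq2 size factors, upper quartile factors, no filter or entries per precursor, 2 with the DESeq2 Wald test, 3 on a log2 day scale and 0 to 2 without 1 library, against 0. Members lower numbered 0 with both library totals, a minimum of 100 counts or limma, 3 on a log2 day scale and 0 to 1 without 1 library, against 1.

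Of 471 miRNAs, 167 were higher and 135 lower in calvaria. With upper quartile factors these were 142 and 192, with 8 members lower, at a minimum of 100 counts 81 and 75, and without 1 library 77 to 179 and 86 to 145, with 3 to 6 members lower. The drop without a calvaria library comes with fewer miRNAs tested (386 to 388). Without miR-21a-5p the miR-99/100 guides held 12.7% in MC3T3 and 6.02% in calvaria (10.1% and 5.58% of all counts), and the miR-125 guides 1.94% in MC3T3 (1.49%).

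Signs turned in values that did not pass. With day, miR-125a-5p was at -0.27 with library totals without miR-21a-5p, -0.025 at a minimum of 100 counts, and -0.38 to 0.37 without 1 library; let-7c-1-3p at 0.059 (limma, pseudocount 1), 0.35 (log2 day scale) and -1.49 to 0.091 without 1 library; let-7e-5p at 0.0016 (library totals), 0.0025 (both limma settings) and -0.73 to 0.28 without 1 library; let-7a-5p at -0.16 (without miR-21a-5p), -0.019 (log2 day scale) and -0.027 to 0.46 without 1 library; and let-7a-2-3p at -2.19 to 0.41 without 1 library. In calvaria, miR-125b-1-3p was at 0.14 against days 17 and 24. let-7e-5p was at -0.043 (without miR-21a-5p), -0.43 (upper quartile), -0.11 (no filter), -0.079 (days 17 and 24), -0.076 (days 0 and 6) and -0.025 to 0.21 without 1 library, and let-7a-5p at -0.27 to 0.018. miR-100-3p was at -0.21 (upper quartile) and -0.37 (days 0 and 6). miR-125a-3p was at -0.024 (without miR-21a-5p), -0.37 (upper quartile), -0.071 (no filter), -0.39 (days 0 and 6), -0.15 (without calvaria 3, filter in 2 libraries) and -0.086 to 0.43 without 1 library. The log2 ratio of miR-125b-1-3p to miR-125b-2-3p ranged from -0.17 to 1.08 without 1 library, that of miR-99a-5p to let-7c-5p was -0.094 with days 6 to 24 only and -0.094 to 0.23 without 1 library, and that of miR-99b-5p to miR-125a-5p ranged from -0.052 to 0.34. The causes were not tested. Without 1 calvaria library no ratio could pass, as the smallest exact permutation p is then 0.0952. Scarce arms are limited by depth, miR-99a-3p resting on 7 to 11 counts per calvaria library.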

Other observations

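The seed of the miR-125 family is also carried by miR-351-5p, which lies in another cluster. It stood at 559.5, 1503, 999.8, 1048 and 1117 RPM on days 0, 6, 10, 17 and 24 and at 1754, 1702 and 1478 RPM in calvaria. In calvaria it was thus more abundant than miR-125a-5p (910.4, 951.0 and 1122 RPM) in all 3 libraries, and in MC3T3 less abundant in 4 of 5, day 17 being the exception. The 2 other names with that seed in RefSeq, miR-6367 and miR-6394, had 0 counts in all 8 libraries. No other RefSeq mature miRNA name than the 3 members carries the seed of the miR-99/100 family.

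Profiles were compared over the 8 libraries by the root mean square difference of centred log2 CPM among 177 other miRNAs with a mean of at least 100 RPM. The profile nearest to miR-99a-5p was that of miR-125b-2-3p from the same cluster (0.191, against a median of 0.974 over the 177), followed by let-7c-5p (0.376) and miR-195a-3p (0.449). The profile nearest to miR-99b-5p was its own passenger arm (0.202), followed by miR-30d-5p (0.209) and miR-484 (0.235). For miR-100-5p the nearest were miR-674-3p (0.134), miR-143-5p (0.153) and miR-28a-5p (0.173), for miR-125a-5p they were miR-872-5p (0.174), miR-151-3p (0.197) and miR-30c-5p (0.230), and for miR-125b-5p they were miR-32-5p (0.184), miR-467a-5p (0.199) and miR-423-3p (0.209). None of those 9 is made from the 3 clusters. These distances describe 8 libraries in 2 materials, which share their library scaling, and carry no test.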
